A study of Mus musculus with 20 samples.

Results

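Myosin heavy chains are the motor subunits of the thick filament, and the heavy chain that a muscle fibre makes sets how fast the fibre contracts. The 8 genes examined here were *Myh7*, *Myh6* and *Myh7b* (slow and cardiac forms), *Myh2*, *Myh1* and *Myh4* (the fast forms of type IIa, IIx and IIb fibres), and *Myh3* and *Myh8* (the embryonic and perinatal forms). They were chosen by gene symbol, taking every non-control probe that the array design assigns to one of them. This gave 8 of the 19985 RefSeq gene symbols on the array and 13 of its 55681 probes, of which 11 rose well over background on 4 or more arrays and so were among the 36930 probes tested, with at least 1 tested probe for each gene.

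The samples were diaphragms of female C57Bl/6 mice taken 12 weeks after a single injection into the pleural cavity at 8 weeks of age, with 4 mice in each of 5 groups and 1 array per mouse. Control mice received 0.5% BSA in saline, SFA and LFA mice received 25 µg of short or long amosite asbestos fibres, and NTS and NTL mice received 5 µg of short or long carbon nanotubes. The asbestos and nanotube doses differed, so LFA and NTL were set side by side at unequal dose. The snap-frozen diaphragm was extracted as bulk tissue, and all groups shared the same control mice.

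Adult limb and trunk muscle is a mixture of slow fibres, which carry *Myh7*, and fast fibres, which carry *Myh2*, *Myh1* or *Myh4*. The diaphragm works without rest and is known for its mixture of slow and fast fibres. *Myh3* and *Myh8* are made while muscle forms and are switched on again in fibres that regenerate. *Myh6* is the main heavy chain of the adult mouse heart, and *Myh7b* is an ancient slow-type gene that also carries a microRNA in one of its introns.

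The 5 fast and developmental genes lie side by side on mouse chromosome 11. On the NCBI37 build given in the array files, their 9 probes spanned 206878 bases from *Myh3* to *Myh8*, while *Myh7* and *Myh6* lay together on chromosome 14 and *Myh7b* on chromosome 2. Of the 5 neighbours, 4 shared an unbroken run of 14 bases upstream of their transcription start, which is shown because no other gene in the promoter table held it. The windows below are from RefSeq (GRCm38.p6, plus strand) and the capitals mark the run, which ended before the listed start of each gene: *Myh2* at chr11:67170842-67170955, *Myh1* at chr11:67199882-67199995, *Myh4* at chr11:67237594-67237707 and *Myh8* at chr11:67277010-67277123.
Myh2: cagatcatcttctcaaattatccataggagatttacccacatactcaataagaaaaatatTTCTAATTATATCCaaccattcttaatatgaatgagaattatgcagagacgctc
Myh1: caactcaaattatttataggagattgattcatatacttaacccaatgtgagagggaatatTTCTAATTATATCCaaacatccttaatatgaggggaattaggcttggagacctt
Myh4: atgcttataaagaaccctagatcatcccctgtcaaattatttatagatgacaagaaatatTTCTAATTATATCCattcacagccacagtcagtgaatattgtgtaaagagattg
Myh8: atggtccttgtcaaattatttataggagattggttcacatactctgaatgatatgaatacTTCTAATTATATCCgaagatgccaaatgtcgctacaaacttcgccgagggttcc

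The run TTCTAATTATATCC was found as the longest stretch common to the promoter windows of these 4 genes, so they hold it by construction. Searched on both strands, it was present in 4 of 27025 genes, or 0.0148%, and so in no gene beside these 4. How rare a run of 14 bases is in general was not tested. The run began 125 bases before the listed start in *Myh2*, 160 in *Myh1*, 158 in *Myh4* and 54 in *Myh8*. The letters TATAAA were present in 6 of the 8 members against 15.7% of all genes, and CANNTG, the letters of the E-box, in 6 of the 8 against 75%. These are matches of letters only. The 4 genes with the run had changes of different size in NTL against control, at -0.83 for *Myh2*, -1.34 for *Myh1*, -2.80 for *Myh4* and -0.95 for *Myh8*.

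The measurements are log2 levels relative to the 75th percentile of each array, so that a difference of 1 between mice means 2-fold. Levels are compared between mice for one probe and not between probes. A change was called when limma gave at least 2-fold and an adjusted p under 0.05 over all tested probes. No spot was saturated. The median of all tested probes was itself shifted by -0.28 in LFA and by -0.25 in NTL against control, and by -0.08 and -0.09 after quantile normalization.

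The tissue label held against its skeletal muscle markers, though liver transcripts were also present. All 8 skeletal muscle markers, among them *Ckm*, *Acta1* and *Ttn*, were well above background on every array, whereas of the heart markers *Ryr2* was above background on 1 array, *Nkx2-5* on 2 and *Tbx20* on 4, and the other 7, such as *Nppa* and *Myl7*, on 13 to 20 arrays. Muscle markers were lower in the groups in which macrophage markers were higher. The mean log2 level of the muscle list was 7.70 in control mice (7.64 to 7.78), 7.28 in SFA, 7.42 in NTS, 6.54 in LFA (6.42 to 6.75) and 6.65 in NTL (6.54 to 6.78), and all 8 markers had negative changes in both long-fibre groups, with 2 called in LFA and 1 in NTL. The macrophage list went from 2.66 in control mice to 4.26 in LFA and 4.62 in NTL, with 6 of 8 genes called higher in each, and the fibroblast list from 5.14 to 5.94 and 6.27, with 1 and 3 of 5 called higher. In bulk tissue, fewer muscle fibres and less RNA per fibre cannot be told apart, and the part of these shifts in the results below was not tested. Liver transcripts varied from array to array, with a list mean between -3.63 and 8.47 and the highest values in NTS replicates 3 and 4. The group mean of the liver list was lowest in control mice, at -0.07, against 2.22 in SFA, 2.37 in LFA, 3.57 in NTS and 2.65 in NTL. All 6 liver genes had positive changes in every fibre group, none called, and each group overlapped with control. The part of liver RNA in the results below was not tested.

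Of the 11 myosin heavy chain probes, 1 was called in LFA against control and 2 in NTL, all lower. Over all probes 3.94% were called in LFA and 6.81% in NTL, or 1.72% and 3.18% when only lower calls are counted. All 11 probes had negative changes in LFA (median -0.88) and 9 of 11 in NTL (median -1.15), with the 2 exceptions being the pair of *Myh3* probes. Relative to the skeletal muscle markers, 8 of the 11 were positive in LFA and 5 in NTL, and with quantile normalization 3 and 2. By adjusted p alone, 2 probes were lower in LFA and 4 in NTL, against 2.06% and 4.03% of all probes. In each long-fibre group 5 probes had all 4 mice below all 4 control mice, which was so for 11.6% of all probes in LFA and 13.8% in NTL. No probe was called in SFA or NTS, where the share of all probes was also 0%, and at an unadjusted p under 0.05 limma gave 1 and 2 of the 11, against 2.28% and 3.49% of all probes.

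**Figure D1:**
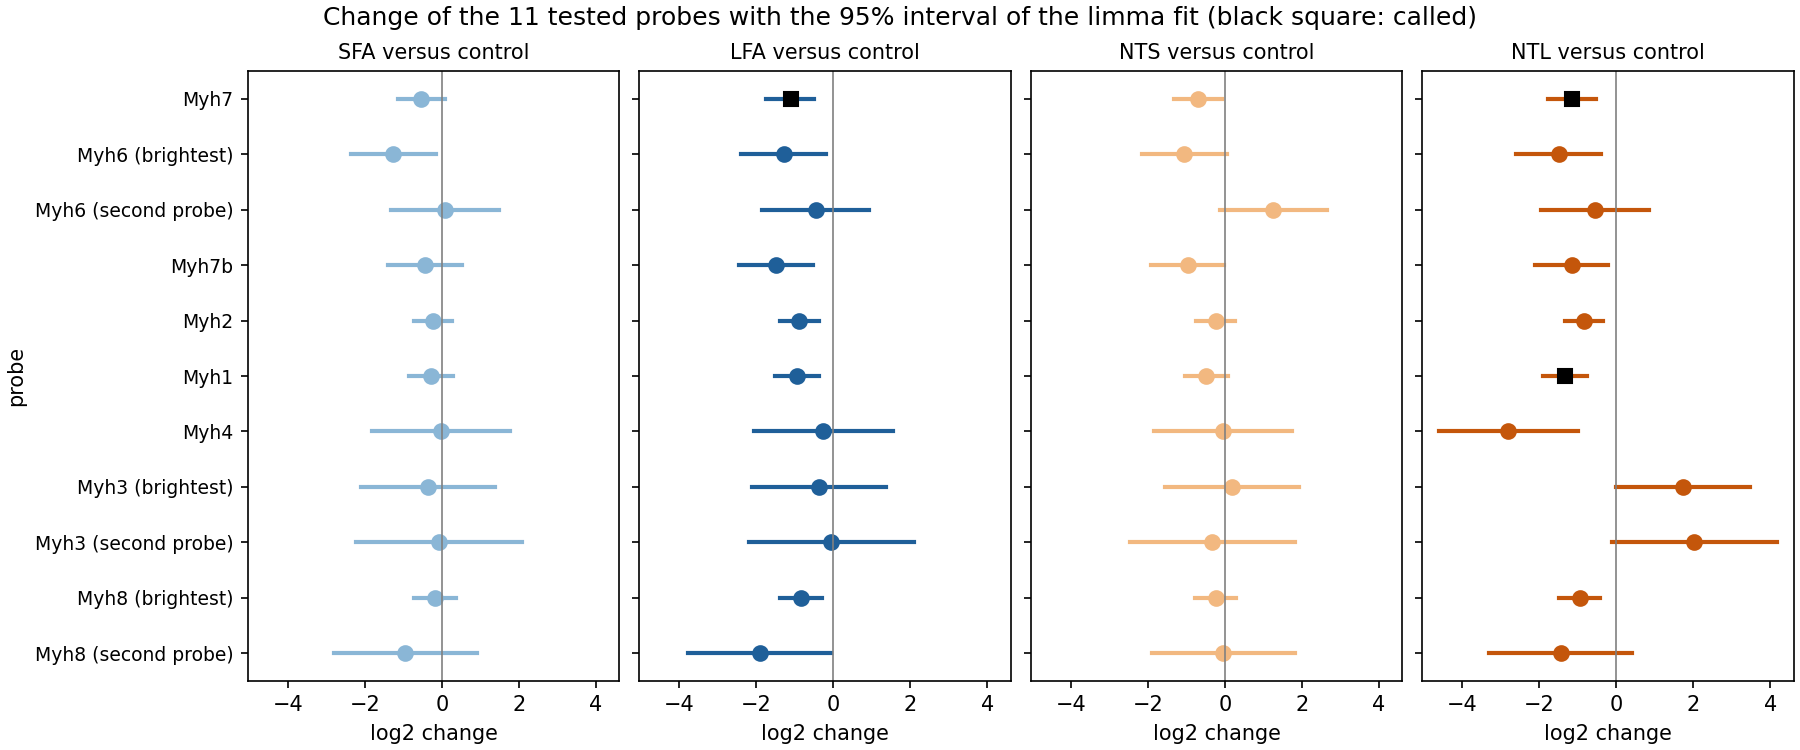
Log2 change of the 11 tested myosin heavy chain probes against control (horizontal axis) in SFA, LFA, NTS and NTL, with bars for the 95% interval of the limma fit, 4 mice per group, and black squares for called changes. *Myh7* was called in both long-fibre groups and *Myh1* in NTL, while *Myh4* in NTL had the widest distance from 0 (-2.80) with an interval from -4.60 to -1.

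Among the slow and cardiac forms, *Myh7*, the heavy chain of slow fibres and of the ventricle before birth, was lower with both long fibres. Its levels in the control mice were 8.14, 9.12, 8.01 and 8.07. The LFA mice had 6.91, 7.21, 7.29 and 7.48 and the NTL mice 7.00, 7.51, 6.73 and 7.49, so that every long-fibre mouse lay below every control mouse. The SFA mice had 8.10, 7.44, 7.61 and 8.08, and the NTS mice 7.59, 8.27, 7.35 and 7.33. Both short-fibre groups overlapped with control.

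*Myh7* fell by 1.11 in LFA (SE 0.30, 2.16-fold, limma adjusted p = 0.0414) and by 1.15 in NTL (SE 0.30, 2.22-fold, limma adjusted p = 0.0237). The short fibres gave -0.53 (SFA, unadjusted p = 0.0911) and -0.70 (NTS, unadjusted p = 0.0302), neither past the adjusted threshold, and the long groups did not differ from the short ones by the test (LFA versus SFA -0.58, 95% interval -1.21 to 0.04; NTL versus NTS -0.45, -1.08 to 0.17). With slide as a block neither call held (limma adjusted p = 0.0816 in LFA and 0.0619 in NTL), nor with scan day as a block (0.0521 and 0.0693) or quantile normalization (-0.66 and -0.57, limma adjusted p = 0.126 and 0.173). Within slides, the LFA difference was -0.69, -1.72 and -0.80 on the 3 slides and the NTL difference was -1.63 and -0.76 on the 2 slides that held NTL mice. Each within-slide value, here and below, rests on 1 to 3 fibre mice against 1 or 2 control mice. The LFA call was lost when any 1 of the 8 control or LFA mice was left out (adjusted p from 0.0506 to 0.105), and the NTL call was lost without control replicate 2 (-0.89, 0.069), NTL replicate 1 (-1.09, 0.0712) or NTL replicate 3 (-1, 0.0735). Relative to the 8 skeletal muscle markers in place of the array percentile, the change of *Myh7* was 0.05 in LFA and -0.10 in NTL, neither called.

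*Myh7b* tracked *Myh7* over the 20 arrays (r = 0.81). Its levels were 3.69, 4.03, 3.65 and 3.22 in control mice, 2.48, 2.40, 1.47 and 2.29 in LFA and 2.74, 2.41, 1.84 and 2.93 in NTL, with no overlap between control and either long-fibre group. In NTS the mice split, with 3.15 and 4.17 in replicates 1 and 2 and 1.87 and 1.53 in replicates 3 and 4, the mice with the most liver transcripts. The changes of -1.49 in LFA (SE 0.45, limma adjusted p = 0.0672) and -1.16 in NTL (adjusted p = 0.126) missed the threshold.

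*Myh6* was weak in this tissue, in which it is not a main form. Its brighter probe, near the end of the transcript, read 0.11, -0.93, -2.01 and -1.39 in control mice, -3.05, -2.29, -2.65 and -1.36 in LFA and -2.99, -1.30, -3.90 and -2.00 in NTL, and the groups overlapped. The means of all 4 fibre groups lay below control by a similar amount, with changes of -1.26 in SFA, -1.29 in LFA, -1.05 in NTS and -1.49 in NTL, none past the adjusted threshold (limma adjusted p = 0.153 in LFA and 0.0902 in NTL). The second probe, near the start of the transcript, was above background on 13 of 20 arrays, did not track the first over the 20 arrays (r = 0.04) and gave 0.09 in SFA, -0.46 in LFA, 1.26 in NTS and -0.55 in NTL. The changes of *Myh6* are therefore those of 1 probe.

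**Figure D2:**
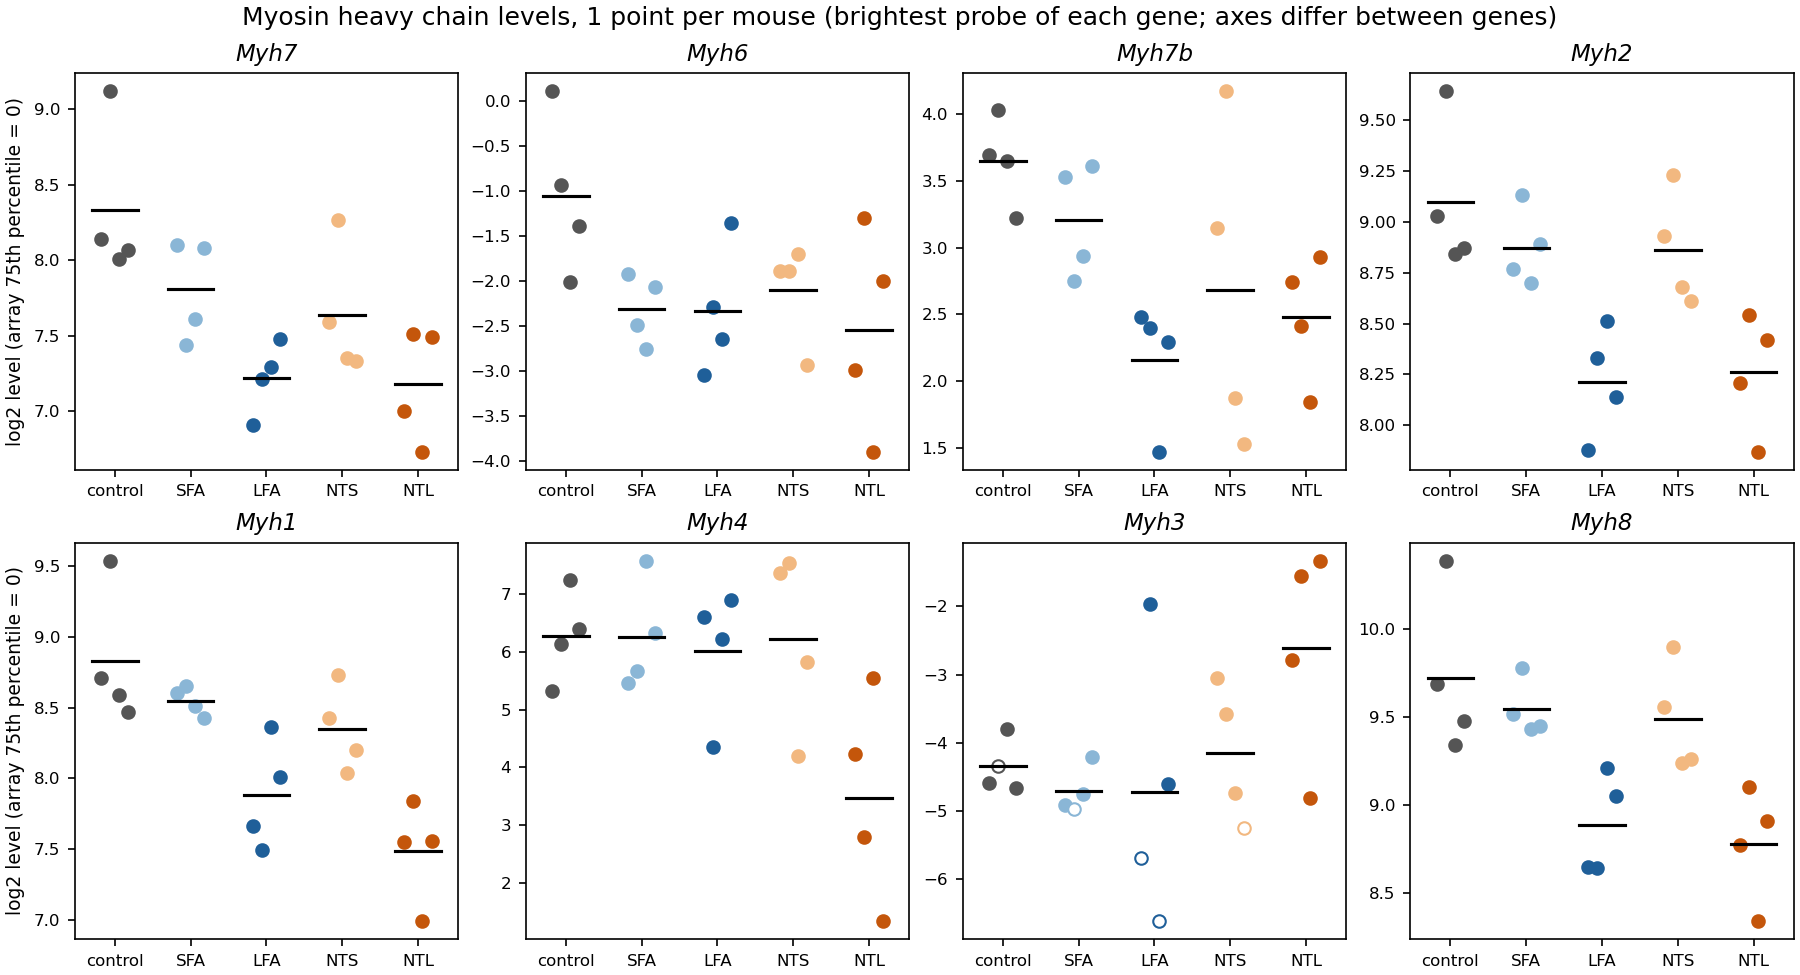
Log2 level relative to the 75th percentile of the array (vertical axis, which differs between panels) for the brightest probe of each of the 8 genes in the 5 groups, with 1 point per mouse, open circles for arrays not well above background and a bar for the group mean. *Myh7*, *Myh7b*, *Myh2*, *Myh1* and *Myh8* had all LFA and all NTL mice below all control mice, and *Myh4* spread from 1.34 to 5.55 among the NTL mice.

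Among the fast forms, *Myh2* (type IIa) had the smallest change in NTL and *Myh4* (type IIb) the largest. *Myh2* had levels of 9.03, 9.64, 8.84 and 8.87 in control mice, 7.88, 8.33, 8.51 and 8.14 in LFA and 8.21, 8.54, 7.87 and 8.42 in NTL. No mouse of either long-fibre group reached the control range. *Myh2* fell by 0.88 in LFA (SE 0.24, limma adjusted p = 0.0431) and by 0.83 in NTL (SE 0.24, limma adjusted p = 0.0385), which is under 2-fold, so that it was not called. Quantile normalization gave -0.35 and -0.23 (limma adjusted p = 0.281 and 0.505), and relative to the skeletal muscle markers the sign turned, to 0.28 and 0.22. The values within slides were -0.55, -1.46 and -0.52 for LFA, and -1.12 and -0.56 for NTL.

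*Myh1*, the IIx form, was the only member called in NTL beside *Myh7*. Control mice had 8.71, 9.54, 8.59 and 8.47, NTS mice 8.43, 8.73, 8.04 and 8.20, and NTL mice 7.55, 7.84, 6.99 and 7.56. All NTL mice lay below all NTS mice as well as below all control mice. *Myh1* fell by 1.34 in NTL (SE 0.27, 2.54-fold, limma adjusted p = 0.00572), and it stayed called without any 1 of the control or NTL mice, at -1.46 to -1.10. On the 2 slides with NTL mice the difference was -1.58 and -1.12. In LFA the mice had 7.66, 7.49, 8.36 and 8.01, a change of -0.95 (SE 0.27, limma adjusted p = 0.0535), called neither by size nor by adjusted p, and the direct comparison of LFA with NTL gave 0.39 (95% interval -0.18 to 0.96). Relative to the skeletal muscle markers, *Myh1* had a change of 0.21 in LFA and -0.29 in NTL (adjusted p = 0.51), and quantile normalization gave -0.74 in NTL, under 2-fold at an adjusted p of 0.0296.

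*Myh4*, the heavy chain of the fastest fibres, had the largest difference of the 8 genes in NTL and a wide spread. Control mice had 5.32, 6.14, 7.24 and 6.40, SFA mice 5.46, 5.67, 7.58 and 6.32, and LFA mice 6.61, 4.36, 6.22 and 6.89. NTS mice had 7.36, 7.53, 4.20 and 5.83, and NTL mice 4.23, 2.79, 5.55 and 1.34. Of the 4 NTL mice, 3 lay below every control mouse, and NTL replicate 3 lay inside the control range.

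In NTL the change of *Myh4* was -2.80 (SE 0.86, 95% interval -4.60 to -1), close to but not past the threshold (limma adjusted p = 0.0525). Leaving out 1 control or NTL mouse at a time gave -3.49 to -2.09. Of these fits, the change of *Myh4* passed only without NTL replicate 3 (-3.49, limma adjusted p = 0.0223), the NTL mouse inside the control range. In LFA it was -0.26 (SE 0.86, limma adjusted p = 0.872). The direct comparison gave LFA 2.55 above NTL (unadjusted p = 0.00821, adjusted p = 1), and the difference between the length effects of asbestos and of nanotubes was 2.52 (SE 1.21, unadjusted p = 0.0526, adjusted p = 1), so a difference between the fibre materials was not shown. The within-slide differences for NTL were -1.50 and -4.02, while for LFA they were 0.15, 0.88 and -2.88. The values of -4.02 (3 NTL mice) and -2.88 (1 LFA mouse) are against the same 1 control mouse on slide 3, which had the highest *Myh4* of the control mice (7.24). Leaving out NTS replicates 3 and 4 was chosen after seeing the data. These mice had the lowest *Myh4* of the NTS group (4.20 and 5.83), so leaving them out widens the gap to NTS by itself. Without them, *Myh4* was called lower in NTL against NTS replicates 1 and 2 (-3.97, limma adjusted p = 0.0141) and against control (-2.80, 0.0291).

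Within each array, the difference between 2 probes does not depend on which single value is subtracted from the array, but quantile normalization can change it. Taken relative to its mean in the control mice, *Myh2* minus *Myh4* was 1.97 ± 2.08 (SD, n = 4) in NTL, from -0.50 to 4.27, and -0.63 ± 1.27 in LFA. *Myh1* minus *Myh2*, a pair chosen after the values had been seen, was tighter. It lay between -0.13 and 0.17 in control mice, -0.21 and 0.09 in SFA, -0.36 and -0.14 in NTS, and -0.61 and -0.40 in NTL, so that all 8 nanotube mice were below all 4 control mice. SFA replicates 2 (-0.21) and 4 (-0.20) and LFA replicate 2 (-0.57) were also below all control mice, with the other LFA mice between 0.05 and 0.13. The highest NTS mouse (-0.14) lay close to the lowest control mouse (-0.13). *Myh7* minus *Myh2*, also chosen after the values had been seen, was -0.46 ± 0.18 in NTS, -0.32 ± 0.12 in NTL, -0.23 ± 0.24 in LFA and -0.30 ± 0.45 in SFA. None of these differences was tested.

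**Figure D3:**
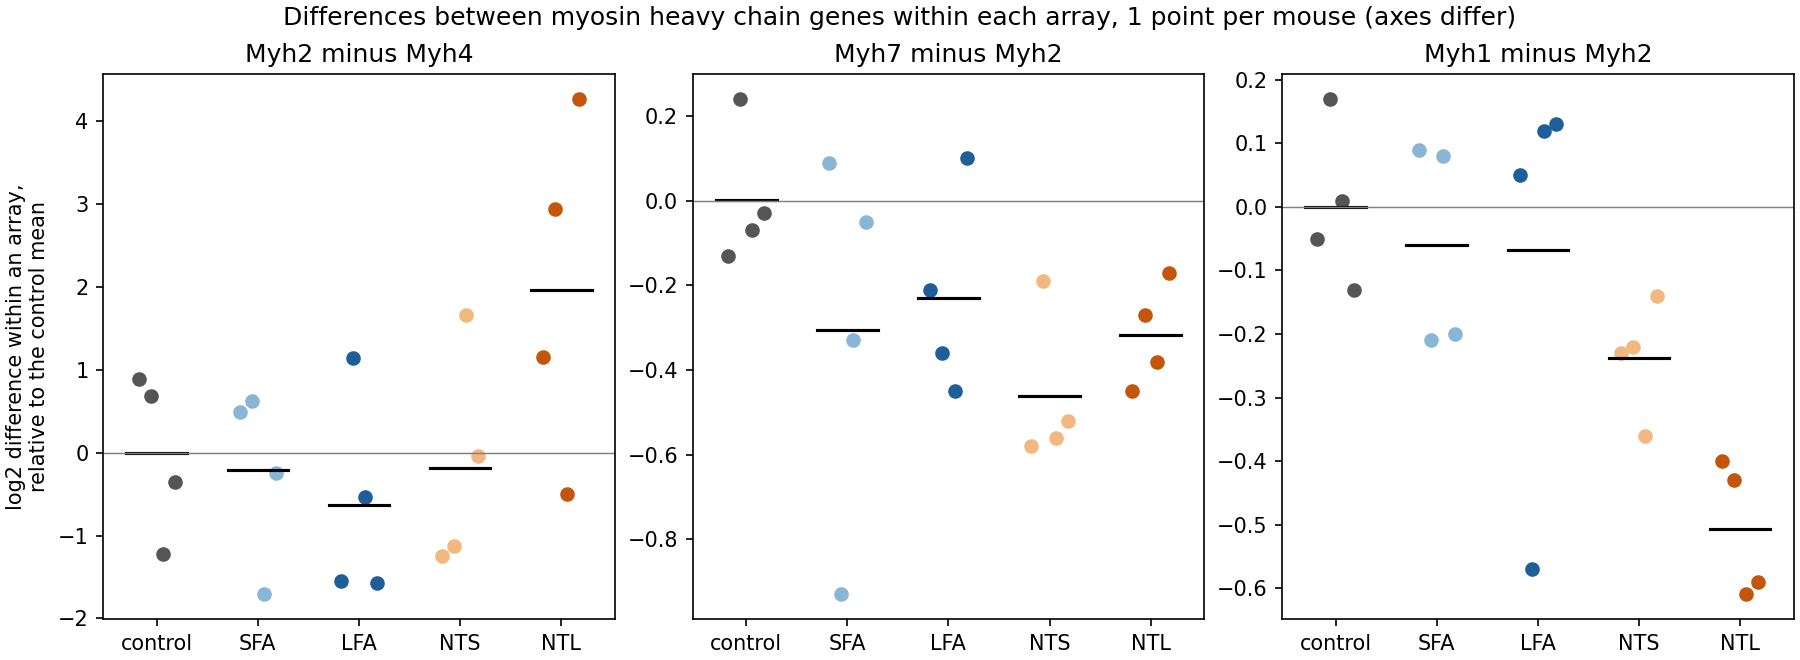
Log2 difference between 2 genes within an array, relative to the mean of the control mice (vertical axis, which differs between panels), for *Myh2* minus *Myh4*, *Myh7* minus *Myh2* and *Myh1* minus *Myh2* in the 5 groups, with 1 point per mouse and a bar for the mean. For *Myh1* minus *Myh2* the NTL mice lay between -0.61 and -0.40 and the control mice between -0.13 and 0.17, while *Myh2* minus *Myh4* reached 4.27 in 1 NTL mouse.

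Of the developmental forms, the embryonic *Myh3* was near background in most mice and clearly above it in a few. Its brighter probe read -4.59, -4.34, -3.79 and -4.66 in control mice and -2.78, -1.56, -4.80 and -1.33 in NTL. In NTL 3 mice lay above all control mice and NTL replicate 3 lay below them, while SFA mice were between -4.97 and -4.20 and NTS mice between -5.24 and -3.05. In LFA replicate 2 stood at -1.96 and the others at -5.68, -6.61 and -4.60, of which the first 2 were not well above background.

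The second *Myh3* probe, at another position of the same transcript, read -2.50, -0.84, -5.25 and -1.39 in NTL, of which only replicate 3 lay in the control range of -5.45 to -3.59, and -1.80 in LFA replicate 2. The 2 probes had r = 0.88 over the 20 arrays. The change in NTL was 1.73 by the brighter probe (SE 0.82, limma adjusted p = 0.213) and 2.02 by the second (SE 1.02, limma adjusted p = 0.241), and in LFA it was -0.37 and -0.05. Neither probe was called. Relative to the skeletal muscle markers both passed in NTL, at 2.78 (limma adjusted p = 0.0135) and 3.08 (0.0257). That scaling was chosen after seeing the data. It raises the NTL change of every probe, since the muscle list mean was 6.65 in NTL against 7.70 in control mice. The share of all probes that passed on this scale is not given here.

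The mice with the most *Myh3* were mice with little *Myh4*. The 4 arrays with the highest *Myh3*, which were NTL replicates 4, 2 and 1 and LFA replicate 2, were among the 5 with the lowest *Myh4*, and the other array of those 5 was NTS replicate 3. Relative to control, *Myh3* minus *Myh4* within the array was 3.62, 6.27, 0.27 and 7.96 in the NTL mice and 4.30 in LFA replicate 2, and it was between -2.21 and 1.68 in every other mouse. Over the 20 arrays the 2 genes had r = -0.59, and r = -0.36 for deviations from the group means, which is a description of arrays that share groups and scaling.

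**Figure D4:**
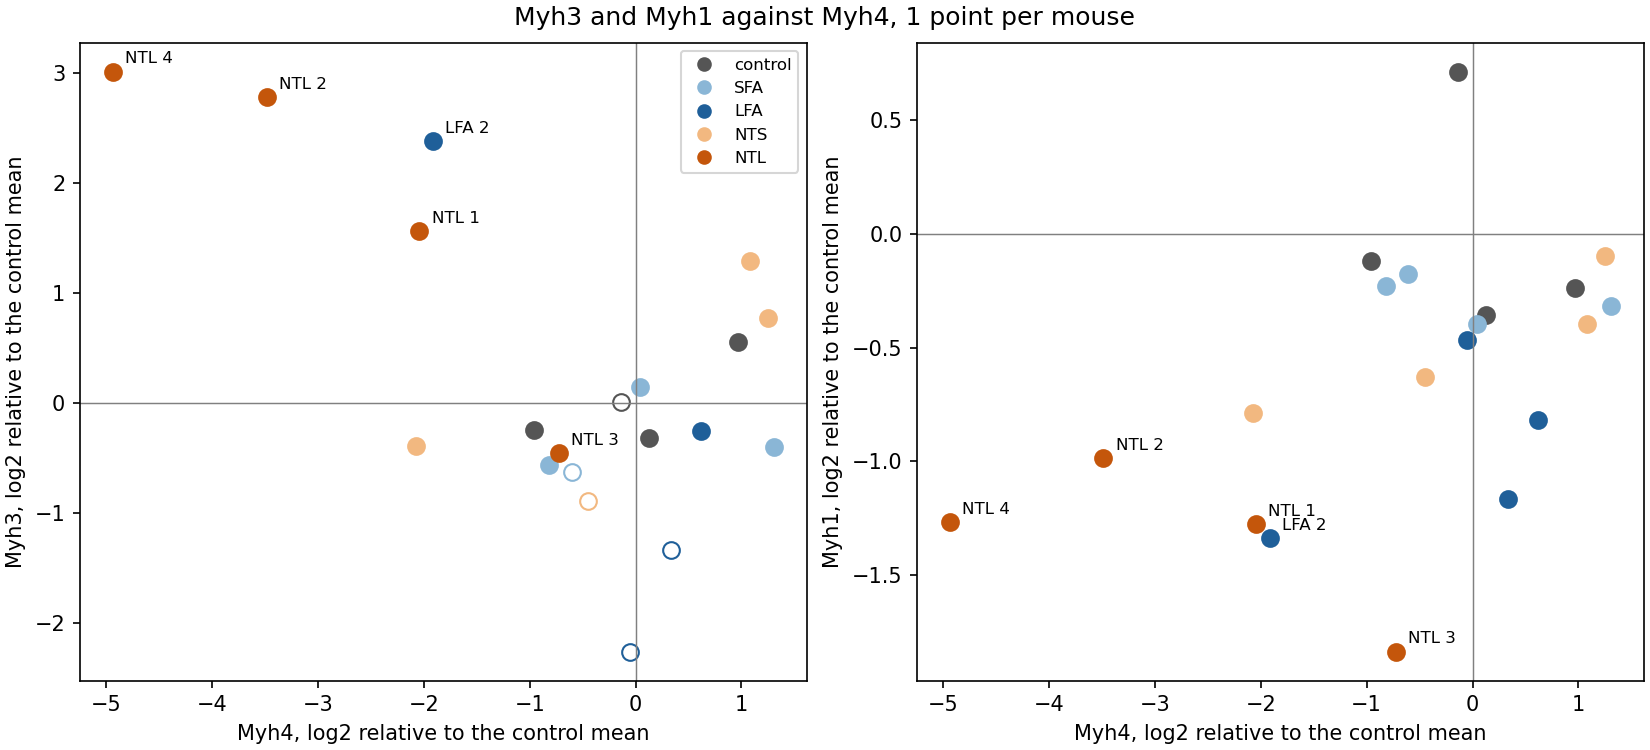
*Myh3* (left) and *Myh1* (right) against *Myh4*, each as log2 level relative to the mean of the control mice, with 1 point per mouse coloured by group and open circles for *Myh3* not well above background. NTL replicates 1, 2 and 4 and LFA replicate 2 had high *Myh3* with low *Myh4*, whereas NTL replicate 3 had neither.

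The perinatal *Myh8* was covered by 4 probes, which did not tell the same story. Sequences of the probes are shown to let them be told apart, since the brightest one lies toward the far end of the transcript (from base 5937) and resembles the brighter *Myh3* probe, which also lies toward the far end of its own (from base 5779). These 2 were the most alike of all pairs among the 13 probes, with 29 identical bases of 48 that overlap, printed in capitals. The third sequence is the second *Myh8* probe, from near the start of the transcript.
Myh8, brightest probe, chr11:67121925-67121984: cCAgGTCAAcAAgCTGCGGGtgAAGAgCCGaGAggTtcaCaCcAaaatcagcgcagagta
Myh3, brighter probe, chr11:66915107-66915166: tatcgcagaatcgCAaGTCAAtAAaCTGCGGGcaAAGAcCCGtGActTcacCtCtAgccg
Myh8, second probe, chr11:67093475-67093534: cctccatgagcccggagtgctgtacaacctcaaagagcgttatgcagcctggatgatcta

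The brightest *Myh8* probe was high in every mouse, at 9.69, 10.39, 9.34 and 9.48 in control mice, 8.65, 8.64, 9.21 and 9.05 in LFA and 8.77, 9.10, 8.34 and 8.91 in NTL. All long-fibre mice lay below all control mice. It fell by 0.95 in NTL (SE 0.26, limma adjusted p = 0.0306), under 2-fold, and its change in LFA was -0.84 (SE 0.26, limma adjusted p = 0.0681), but relative to the skeletal muscle markers it had 0.11 and 0.32. Over the 20 arrays it had r = 0.97 with *Myh1* and r = 0.96 with *Myh2*, but r = 0.27 with the second *Myh8* probe. With the brighter *Myh3* probe, which it resembles in sequence, it had r = -0.18.

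The second *Myh8* probe read 3.16, 0.89, 3.40 and 3.79 in control mice, 1.07, 2.02, -0.34 and 0.85 in LFA and 1.98, 0.02, 1.41 and 2.08 in NTL, with overlap in both comparisons. Its changes of -1.91 in LFA (SE 0.88, limma adjusted p = 0.199) and -1.43 in NTL (limma adjusted p = 0.348) were not called. Over the 20 arrays it had r = 0.77 with the second *Myh6* probe, which also lies near the start of its transcript. The reason was not tested. Of the other 2 *Myh8* probes, 1 was above background on 3 arrays and 1 on none, and neither was tested. What the brightest probe measures beside *Myh8* was not tested.

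By form, the slow and cardiac genes had median changes of -1.29 in LFA and -1.16 in NTL, the fast genes -0.88 and -1.34, and the developmental pair -0.60 and 0.39. In NTL *Myh3* (1.73) and *Myh8* (-0.95) had opposite signs, so the median of the pair describes neither gene. *Myh8* stands here by its brightest probe, which tracked *Myh1* and *Myh2*, while its second probe gave -1.91 in LFA and -1.43 in NTL. The fast medians were -0.35 and -0.74 under quantile normalization. In SFA and NTS the same medians were -0.53 and -0.96 for the slow and cardiac genes, -0.23 and -0.24 for the fast genes, and -0.27 and -0.02 for the developmental pair.

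Fibre length was compared within each material. By the study's methods, both asbestos lengths were prepared from the same batch. The short nanotubes were bought, and the long ones were made in a university laboratory. The NTS mice were on slides 1 and 2, whereas NTL replicates 2, 3 and 4 were on slide 3, which was scanned on another day. SFA mice were on slides 2 and 3, and LFA replicates 3 and 4 on slide 1. Fibre length therefore cannot be fully told apart from slide, and in the nanotube comparison also from scan day and nanotube source. In LFA against SFA no member was called, against 1.16% of all probes, and 4 of 11 probes (*Myh7b*, *Myh2*, *Myh1* and the brightest of *Myh8*) had all LFA mice below all SFA mice, against 5.81% of all probes. In NTL against NTS no member was called, against 7.6% of all probes, and 3 (*Myh2*, *Myh1* and the brightest of *Myh8*) did not overlap, against 8.35%. At an unadjusted p under 0.05, limma gave 4 and 6 of the 11 probes, against 12.5% and 25.1% of all probes. The nearest to a call was *Myh4* in NTL against NTS, at -2.75 (SE 0.86, limma adjusted p = 0.0529), and *Myh1* had -0.87 (SE 0.27, limma adjusted p = 0.0535), or -1.10 (limma adjusted p = 0.0373) without NTS replicates 3 and 4. Those mice, left out after seeing the data, had the lowest *Myh1* of the NTS group (8.04 and 8.20). Between LFA and NTL no member and 0% of all probes were called, with 2 of the 11 and 1.55% of all probes at an unadjusted p under 0.05.

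The genes most like each member over the 20 arrays were found among 15515 other genes by Pearson r. *Myh2* was followed by *Tcap* (r = 0.953), *Myo18a* (0.926) and *Mb* (0.925), of which *Tcap* caps titin at the Z-disc and *Mb* is myoglobin. *Myh1* was followed by *Hrc* (0.96), a calcium-binding protein of the sarcoplasmic reticulum, *Timm44* (0.959) and *Smtnl1* (0.944), and *Myh7* by *A330094K24Rik* (0.951), *Bag3* (0.946), a co-chaperone of the Z-disc, and *Mast2* (0.927). *Myh4* had *Actn3* (0.869), the alpha-actinin of fast glycolytic fibres, *Chst4* (0.811) and *Mybph* (0.803). *Myh3* had *Mmp11* (0.84), a secreted matrix metalloproteinase, *C1qtnf7* (0.832) and *Col12a1* (0.826), a collagen. *Myh7b* was closest to *Vps4a* (0.945), *Myh6* to *Prex2* (0.788) and *Myh8* to *Timm44* (0.95). These values rest on arrays that share groups, scaling and muscle content.

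Genes that work with the heavy chains were followed in lists by role. By the brightest probe, 1.76% of 15582 genes were called lower in LFA and 3.76% in NTL, and no gene of any list was called in SFA or NTS. The changes below are relative to the array percentile, on which the 8 skeletal muscle markers had medians of -1.08 in LFA and -0.98 in NTL.

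Of the 13 fast fibre partners all had negative changes in both long-fibre groups, with 2 called lower in LFA and 6 in NTL (medians -1.22 and -1.25). *Actn3* fell by 2.01 in NTL (SE 0.57, limma adjusted p = 0.0365), *Tnnt3*, the fast troponin T, by 1.97 (SE 0.39, 0.00476) and *Pvalb*, the calcium buffer of IIb fibres, by 1.95 (SE 0.44, 0.0114). The others called in NTL were *Myoz1*, *Mylk2* and *Mybpc2*, and the 2 called in LFA were *Myoz1* (-1.31) and *Mylk2* (-1.25). The 3 named first had changes of -1.22, -1.02 and -1.36 in LFA and were not called there.

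Of the 12 slow fibre partners 11 had negative changes in each long-fibre group, with 1 called lower in LFA and 2 in NTL (medians -0.95 and -1.01). *Casq2*, the slow and cardiac calsequestrin, fell by 1.40 in LFA (SE 0.31, limma adjusted p = 0.0173) and decreased by 1.05 in NTL (SE 0.31, limma adjusted p = 0.0422), and *Tnnt1*, the slow troponin T, fell by 1.32 in NTL (SE 0.35, limma adjusted p = 0.0263). The exception was *Tpm3*, which encodes the slow tropomyosin of muscle and also tropomyosins of other cells, with 0.72 in LFA (SE 0.18, limma adjusted p = 0.0343) and 0.62 in NTL (SE 0.18, limma adjusted p = 0.0465), both under 2-fold. It is named outside the rule for named genes because its sign opposed that of its list.

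**Figure D5:**
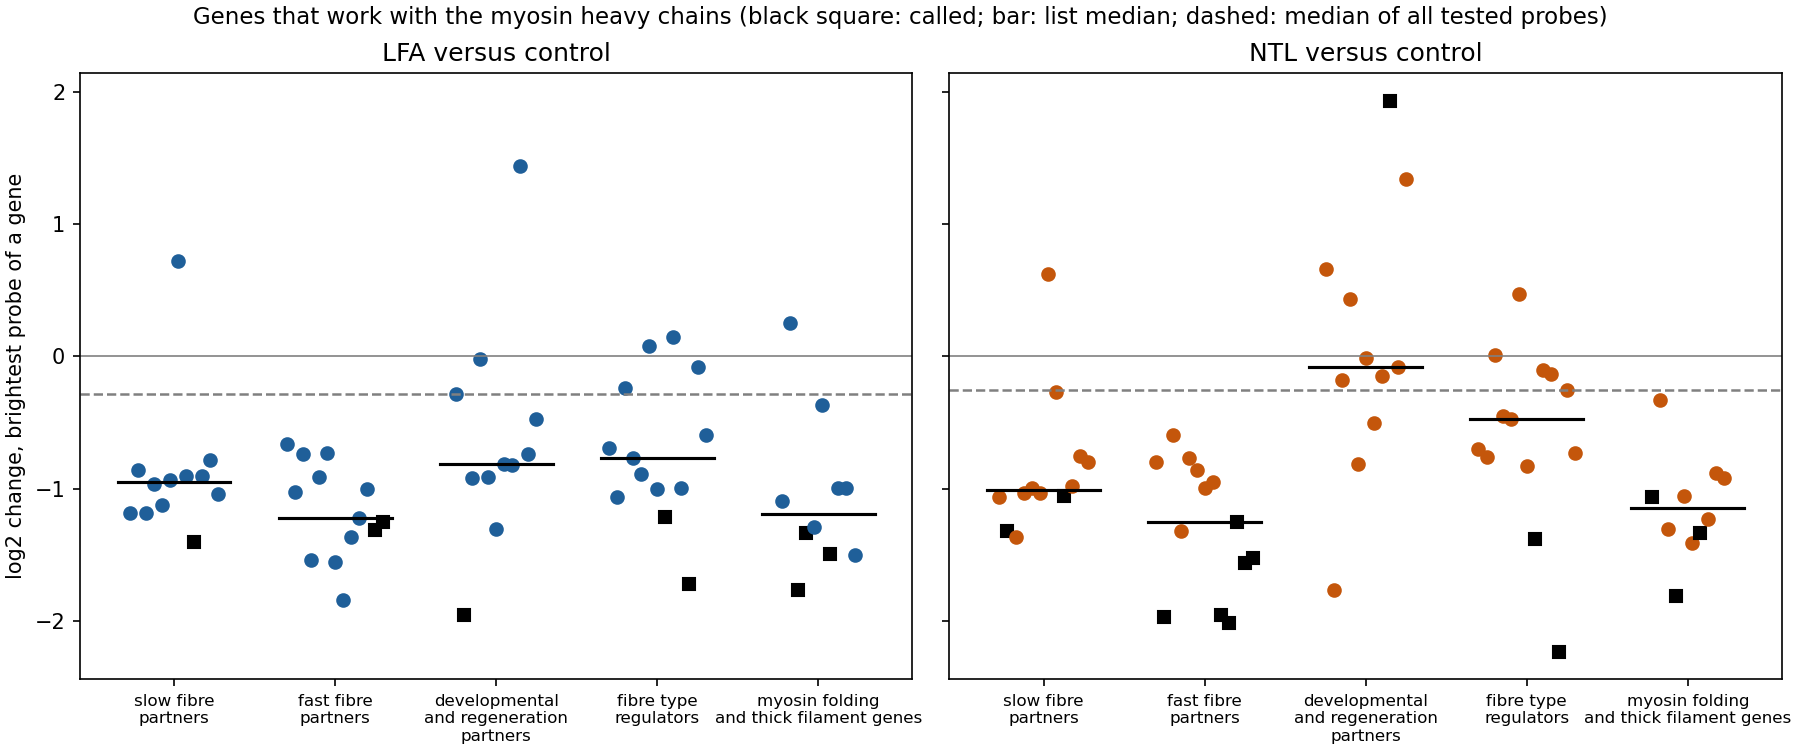
Log2 change against control of the genes in 5 lists that work with the myosin heavy chains (vertical axis, brightest probe of each gene) in LFA (left) and NTL (right), with black squares for called genes, a bar for the list median and a dashed line for the median of all tested probes. In NTL 6 of 13 fast fibre partners were called lower, and *Ncam1* at 1.93 was the 1 gene called higher in any of these lists.

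The developmental and regeneration list, of which 11 of 12 genes were tested, had medians of -0.81 in LFA and -0.08 in NTL, a difference that was not tested. *Ncam1*, a surface protein of regenerating and denervated fibres that nerve and immune cells also carry, rose by 1.93 in NTL (SE 0.49, limma adjusted p = 0.022) and had 1.44 in LFA (limma adjusted p = 0.093). *Actc1*, the cardiac alpha-actin that developing muscle also makes, fell by 1.95 in LFA (SE 0.54, limma adjusted p = 0.0483). The myogenic factor *Myog* and the fusion factor *Mymk*, named outside the rule, had changes of 0.43 and -0.08 in NTL, neither called.

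Of the 13 fibre type regulators 2 were called lower in each long-fibre group (medians -0.77 and -0.47). *Ppargc1a*, the coactivator that promotes mitochondria and slow fibre genes, fell by 1.72 in LFA (SE 0.43, limma adjusted p = 0.0336) and decreased by 2.23 in NTL (SE 0.43, limma adjusted p = 0.0044), and *Vgll2*, a muscle cofactor of TEAD proteins, fell by 1.21 (SE 0.29, limma adjusted p = 0.0297) and 1.38 (SE 0.29, limma adjusted p = 0.00837).

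Of the 10 myosin folding and thick filament genes 3 were called lower in each long-fibre group (medians -1.19 and -1.15). *Myom1*, which crosslinks thick filaments at the M-band, fell by 1.49 in LFA (SE 0.31, limma adjusted p = 0.0137) and decreased by 1.33 in NTL (SE 0.31, limma adjusted p = 0.0143), and *Trim63*, the ubiquitin ligase MuRF1 that marks thick filament proteins for breakdown, fell by 1.33 in LFA and fell by 1.81 in NTL (limma adjusted p = 0.0404 and 0.0044). *Smyd1*, a methyltransferase needed to build thick filaments, fell by 1.76 in LFA, and *Unc45b*, the myosin chaperone, fell by 1.06 in NTL (limma adjusted p = 0.0447 and 0.0459). Of the other class II heavy chains, 4 of 6 were tested, and *Myh14*, a non-muscle myosin also made in skeletal muscle, fell by 1.38 in NTL (SE 0.36, limma adjusted p = 0.0238). No other gene of that list was called in LFA or NTL.

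The remaining marker lists give the company in which these values stood. No gene of the heart, smooth muscle, mesothelium, liver or lung list was called in any group against control. In the fat list 2 of 5 genes were called lower in NTL, and of the 2 tested satellite cell genes 1 was called lower in LFA. The mean level of the heart list was between -4.27 and -3.70 in every group, that of the smooth muscle list went from 3.80 in control mice to 2.62 in LFA and 3.03 in NTL, that of the mesothelium list from 2.79 to 3.10 and 2.52, that of the lung list from -5.67 to -5.98 and -5.50, that of the fat list from 3.59 to 2.86 and 2.34, and that of the satellite cell list from -2.45 to -3.28 and -3.07. Their part in the changes of the myosin heavy chains was not tested.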

How the data were processed

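RNA of 20 diaphragms (5 groups of 4 mice) was labelled with Cy3 and hybridised to 1-colour Agilent 60K mouse arrays. The deposited scanner files hold intensity values per spot that the authors obtained with Agilent Feature Extraction 10.7.3.1, which subtracts the local background and gives a flag for spots well above it (unit other, per the file headers). A deposited table of the authors holds 1 log2 value per group and probe, normalized in GeneSpring, and was used only as an alternative since it has no replicates.

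Here, log2(gProcessedSignal) minus the 75th percentile of each array was taken over 59305 non-control spots, leaving out 92 to 204 outlier spots per array, and spots of a probe were averaged (55681 probes). limma 3.58.1 (R 4.3.3) fitted all 20 arrays with 1 mean per group and eBayes on 36930 probes well above background on at least 4 arrays, with Benjamini-Hochberg adjustment over all of them, in 7 comparisons. The fit was tested on simulated data. A gene outside the members was represented by its brightest probe.

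The members and the gene and marker lists were chosen with earlier results of these data known. Named partners were up to 3 called genes per list with the largest change in LFA or NTL. Likeness took the 3 genes with the highest r. The precision rests on 4 mice per group, and p-values measure the spread between mice. Same-numbered mice did not deviate together (mean r = -0.03, 40 pairs), so the numbers were not taken as pairs. The test over the 5 groups that the study's methods name was run on the same values, adjusted over all 36930 tested probes. The study first kept probes with a 2-fold change, which was not done here. Slides (3) and scan days were tried as blocks. Exon and UTR positions of the probes were not used here. Sequences came from the array files and from the RefSeq promoter table. Figures were drawn with matplotlib 3.10.9.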

Additional observations from a re-analysis of the deposited data

Results flagged for a closer look

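*Myh7* in control replicate 2 stood at 9.12, far from the other control mice at 8.01 to 8.14. Without that mouse the change of *Myh7* was -0.85 in LFA and -0.89 in NTL, and neither was called. Its array had the lowest 75th percentile (294) and the fewest spots above background (53%) of the 20 arrays. It also had the highest control values of *Myh7b*, *Myh2*, *Myh1* and the brightest *Myh8* probe. NTL replicate 3, with the highest percentile (996), had the lowest *Myh7*, *Myh2*, *Myh1* and brightest *Myh8* values. The part of array scaling in these values was not tested. *Myh6* in NTS replicate 4 stood at -2.93, apart from the other NTS mice at -1.89 to -1.70. These were 2 of 55 groups of 4 values examined, and chance alone marks about 1 group in 20. An untested *Myh8* probe, above background on 3 arrays, read -2.76 in SFA replicate 2, above the control range of -6.76 to -4.09.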

How the results depend on the processing

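The number of members called in LFA, 1 in the fit as reported, was 0 with quantile normalization, without a filter, with slide or scan day as a block, relative to the muscle markers and with only the groups compared fitted, and 2 with normexp, with the filter on all arrays, without NTS replicates 3 and 4 and by adjusted p alone. In NTL, 2 as reported, it was 0 with quantile normalization, 1 with slide or scan day as a block and with only the groups compared, and 4 without NTS replicates 3 and 4 and by adjusted p alone. Relative to the muscle markers it was again 2, but these were the *Myh3* probes, higher. In NTL against NTS, 0 as reported, it was 1 with normexp and with the filter on all arrays, 2 relative to the muscle markers and 3 without NTS replicates 3 and 4. Leaving out 1 mouse at a time gave 0 to 2 in LFA, 1 to 4 in NTL and 0 to 3 in NTL against NTS. The other 4 comparisons gave 0 under every alternative run. Over the 5 groups, by adjusted p, limma passed 1 of the 11 members' probes (6.85% of all probes) and the methods' test with unequal variances 0 (3.71%). Scaling to the muscle markers and leaving out NTS replicates 3 and 4 were chosen after seeing the data. Apart from the construction of each alternative, the cause of these shifts was not tested.

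Quantile normalization moved the fast median to -0.35 in LFA and -0.74 in NTL and turned the sign of the second *Myh6* probe (0.08), *Myh4* (0.04) and the second *Myh3* probe (0.34, and 0.41 with slide as a block) in LFA, and of *Myh7* (0.11), *Myh2* (0.04) and *Myh8* (0.06) in NTL against NTS. Relative to the muscle markers the sign turned in LFA for *Myh7* (0.05), the second *Myh6* probe (0.69), *Myh2* (0.28), *Myh1* (0.21), *Myh4* (0.90), the *Myh3* probes (0.79 and 1.11) and *Myh8* (0.32). In NTL it turned for the second *Myh6* probe (0.51), *Myh2* (0.22) and *Myh8* (0.11), and in NTL against NTS for *Myh7* (0.32), *Myh6* (0.32), *Myh7b* (0.57), *Myh2* (0.17) and *Myh8* (0.06).

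Leaving out 1 mouse turned signs in LFA for *Myh4* (range -0.57 to 0.30) and the *Myh3* probes (-1.29 to 0.26 and -0.98 to 0.39), in NTL for the second *Myh6* probe (-1.10 to 0.05), and in NTL against NTS for *Myh6* (-0.86 to 0.00) and *Myh7b* (-0.58 to 0.30). The replicate number as a block left 1 call in LFA and 2 in NTL and changed no other call of a member. Same-numbered mice share only a number, with r of their deviations from -0.68 to 0.69. Single probes were rerun only for LFA and NTL against control and NTL against NTS, and the authors' table, without replicates, gives no count. Signal near background limits *Myh3* and the second *Myh6* probe.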
